A study of Mus musculus with 8 samples.

Results

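Chromatin regions that carried both trimethylated histone H3 lysine 4 (H3K4me3) and trimethylated histone H3 lysine 27 (H3K27me3) in every library were examined in mouse germline stem cells grown for a short or a very long time. Overlapping peaks of the 4 H3K4me3 lists, by 1 bp or more, were joined into regions. A region was kept when it held an H3K4me3 peak in all 4 lists and overlapped an H3K27me3 peak in each of the 4 H3K27me3 lists. The members were thus selected on the peak calls of all 8 lists, which rest on the authors' signal and significance per peak. The rule kept 1709 regions, which were 3.13% of the 54585 merged H3K4me3 regions and 4.85% of the 35229 regions with H3K4me3 in all 4 lists. Because the rule asks for both marks in all 8 libraries, the presence of the marks is how the regions were chosen and not a result. The rule is worded alike for both ages. It can still shape the size and place of a difference between them, since the lists of the ages need not fail it equally often.

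H3K4me3 is laid down at promoters by Set1 and MLL complexes and is found at active or poised promoters. H3K27me3 is laid down by Polycomb repressive complex 2, spreads over silent developmental genes, and together with H3K4me3 marks promoters that are called bivalent. Such promoters are best known from embryonic stem cells, and male germ cells also carry both marks at many developmental genes. The lists come from bulk cells, so whether both marks sat on the same nucleosome, the same allele or the same cell cannot be told apart.

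The cells were wild type germline stem (GS) cells, which are spermatogonial stem cells propagated in culture. They were derived from testes of Green mice of DBA/2 background, whose full strain name is C57BL/6 Tg14(act-EGFP)OsbY01. All groups carry that enhanced green fluorescent protein transgene and were grown with FGF2, GDNF and fetal bovine serum. One group had been in culture for about 5 months (5M) and the other for about 60 months (60M), so age here is time in culture and not the age of an animal. Each mark and age had 2 libraries. Whether the replicates stem from different cultures is not in the labels, and their spread, and p-values that rest on it, may be technical. Nor do the labels say which lysates received micrococcal nuclease besides sonication. The lists held 41637 to 47415 H3K4me3 peaks and 12002 to 14940 H3K27me3 peaks, called per library, with borders in steps of 1000 bp. They give no read totals, so depth is unknown, and the lack of a listed peak is no evidence that a mark was lacking. Positions follow the mm9 chromosome lengths, no gene table of that build was used, and regions are therefore named by position. Genes, exons, promoter sequences and markers of germ cells or other testis cells were not analysed here.

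The 1709 regions covered 5.8 Mb and were longer than other shared H3K4me3 regions. Their mean length was 3.39 kb (SD 1.73 kb over regions), with a median of 3 kb and a range of 1 to 15 kb, against a mean of 2.60 kb for the others. The share of shared H3K4me3 regions that met the rule rose with length, from 1.79% of those of 1 kb to 7.20% of those of 4 kb and 21.4% of those of 6 kb or more. A longer region has more room to overlap a peak of the other mark, so this order is partly set by the rule. Seen from the other mark, 1745 of the 4962 H3K27me3 regions listed in all 4 libraries (35.2%) overlapped one of the 1709 regions. Of these H3K27me3 regions, 1600 carried 1, 122 carried 2 and 23 carried 3 or more, up to 4.

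The regions lay on all 20 chromosomes, with few on the X chromosome. Of the 1002 shared H3K4me3 regions on the X, 16 met the rule (1.60%), against 1693 of 34227 on autosomes (4.95%). The X also held only 44 of the 4962 shared H3K27me3 regions, and 36.4% of them lay on a region with both marks, close to the 35.2% on autosomes. Among the autosomes the share ran from 3.63% on chromosome 17 to 6.51% on chromosome 18. Within a distance of 25 kb of each other, 419 regions (24.5%) formed 189 groups, of which 35 held 3 or more. At the same distance 64.7% of the 30344 regions without H3K27me3, which are far more numerous, lay in such groups. The 6 largest groups had 4 regions each. Chromosome 2 held 2 of them (9796000 to 9818999 and 105499000 to 105530999). The others were on chromosome 4 (22404000 to 22425999), on chromosome 10 (79774000 to 79820999), on chromosome 12 (120074000 to 120094999) and on chromosome 14 (49271000 to 49289999).

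At the edge of the rule, 1050 of the 1709 regions (61.4%) overlapped H3K27me3 by a single 1000 bp bin in the library where the overlap was least. The median over regions of the mean H3K27me3 percentile within the lists was 83.2 for all 1709 regions and 76.9 for those 1050. Just outside, 857 regions with H3K4me3 in 4 lists had H3K27me3 in 3, at a median percentile of 64.6. The missing H3K27me3 peak was that of 5M library 1 in 206 of them, of 5M library 2 in 36, of 60M library 1 in 267 and of 60M library 2 in 348. A further 87 regions had H3K27me3 in 4 lists and H3K4me3 in 3. Weak examples inside the rule include a 3 kb region on the X (100516000 to 100518999), where H3K27me3 stood at percentiles 5.47, 4.74, 0.86 and 1.25 of the lists of 5M libraries 1 and 2 and 60M libraries 1 and 2.

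The region with the strongest H3K27me3 ranked in the lower part of the H3K4me3 levels. Signal is the authors' maximum value per peak, of unknown scaling, and a percentile is its rank within a library, over the whole list for H3K27me3 here and among the 35229 shared regions for H3K4me3. A region takes the highest signal of any peak that overlaps it, so its H3K27me3 maximum may lie outside the region. On chromosome 6 (47596000 to 47597999) the H3K27me3 signal was 297 and 338 at 5M and 274.4 and 286 at 60M, at or above percentile 99.98 of each list. The same region had H3K4me3 percentiles of 17.5 and 24.9 at 5M and 34.7 and 21.5 at 60M, which overlap between the ages. The next was a 2 kb region on chromosome 7 (86644000 to 86645999), with H3K27me3 signals of 161.7, 183.6, 143.6 and 146.3 in the same order of libraries. Among the 8 regions with the highest H3K27me3 in their lowest library, the pair on chromosome 12 (57620000 to 57622999 and 57633000 to 57638999) had the same H3K27me3 maxima in all 4 libraries. A pair on chromosome 9 (74694000 to 74697999 and 74708000 to 74711999) had the same maxima in 3 of the 4.

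The 8 regions with the highest H3K4me3 in their lowest library measured 4 to 10 kb, and H3K27me3 covered a part of each, never the whole, in all 4 libraries. On chromosome 12 (113911000 to 113918999), an 8 kb region, the H3K4me3 signal was 781.1 and 745.1 at 5M and 766.6 and 701.6 at 60M. It stood at percentiles 99.0, 99.4, 99.3 and 99.5, while H3K27me3 covered 1 of its 8 kb in every library. On chromosome 14 (62299000 to 62308999) 10 kb of H3K4me3 held 4 and 5 kb of H3K27me3 in the 5M lists, and in the 60M lists 3 and 2 kb. By contrast, H3K27me3 ran through nearly all of a 10 kb region on chromosome 9 (62989000 to 62998999), with 10 kb covered in both 5M libraries and 9 kb in both 60M libraries. The longest region, 15 kb on chromosome 4 (99316000 to 99330999), held 12 and 14 kb of H3K27me3 in the 5M lists, and in the 60M lists 10 and 8 kb. Over all 1709 regions the H3K4me3 and H3K27me3 signals were almost unrelated, with Spearman's rho of −0.046 and −0.031 for the 5M libraries and −0.019 and 0.048 for the 60M libraries of the same number. These coefficients describe regions that share the libraries of a mark and sometimes a peak.

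H3K4me3 in the regions with both marks ranked higher at 60M than at 5M. Their median percentile among the 35229 shared regions was 44.3 and 45.6 in the 5M libraries and 49.4 and 55.1 in the 60M libraries. Both 60M values lay above both 5M values, and the 60M libraries differed from each other by more than 60M library 1 differed from either 5M library. The mean of these medians was 44.9 ± 0.892 at 5M and 52.2 ± 4.0 at 60M (SD, n = 2; exact two-sided permutation test p = 0.333, the smallest that 2 libraries against 2 allow). Regions with H3K4me3 and no H3K27me3 peak in any list, 30344 in number, had medians of 51.3, 51.1, 50.7 and 49.8. They are most of the 35229 regions ranked, so the ranking itself leaves their median little room to move.

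**Figure D1:**
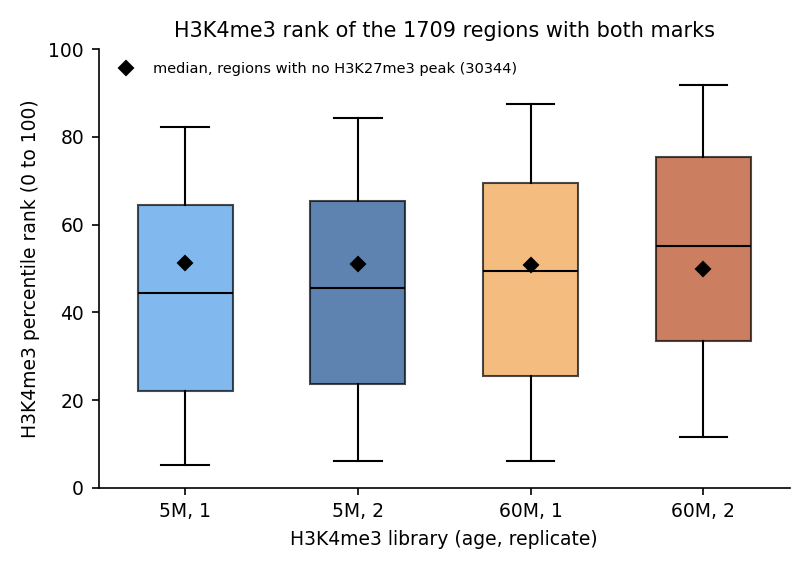
H3K4me3 percentile rank (vertical axis, 0 to 100, among the 35229 shared regions) of the 1709 regions with both marks in each H3K4me3 library (horizontal axis). Boxes show the quartiles with the median as a line, whiskers reach the 5th and 95th percentiles of the regions, and diamonds are the medians of the 30344 regions with no H3K27me3 peak. The box medians go from 44.3 and 45.6 at 5M to 49.4 and 55.1 at 60M. The diamonds lie between 49.8 and 51.3, and can move little because their regions are most of those ranked.

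Region by region, the rank change was taken as the mean percentile at 60M minus that at 5M. Its median over the 1709 regions was 6.35 percentile points (quartiles 2.37 and 10.4), and it was positive in 1489 regions (87.1%). Over all 35229 shared regions the median was −0.22 and the positive share 47.7%. In 1086 regions (63.5%) both 60M libraries ranked above both 5M libraries, where the background over all shared regions was 30.3%. In 80 regions (4.68%) both 60M libraries ranked lower, against a background of 32.5%. Single libraries show how much of this rests on each. From 5M library 1 the median change was 3.96 points to 60M library 1 and 9.81 points to 60M library 2, and from 5M library 2 it was 2.64 and 8.53. Between replicates it was 1.32 points from 5M library 1 to 5M library 2 and 5.78 points from 60M library 1 to 60M library 2. The change between the 60M replicates was thus larger than that from either 5M library to 60M library 1. Without 60M library 2 the median rank change was 3.38 points, and without 60M library 1 it was 9.24. The median change was upward in each of these pairs.

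The rank change was larger the more H3K27me3 lists a region appeared in. Regions with H3K4me3 in all 4 lists and no H3K27me3, which are most of the regions ranked, had a median change of −0.71 points. With H3K27me3 in 1, 2 and 3 lists the median was 2.53, 3.72 and 4.52 points in 1361, 958 and 857 regions, before the 6.35 of the 1709 regions with H3K27me3 in all 4. These are descriptions of the same 4 H3K4me3 libraries.

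**Figure D2:**
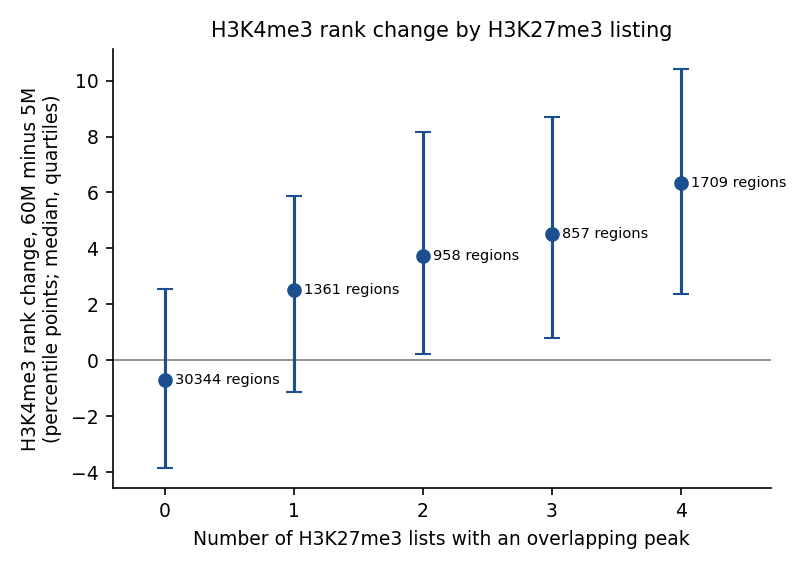
Change in H3K4me3 percentile rank from 5M to 60M (vertical axis, percentile points) for shared H3K4me3 regions, by the number of H3K27me3 lists with an overlapping peak (horizontal axis). Points are medians over regions and bars the quartiles of regions, and the medians go from −0.71 with 0 lists to 6.35 with 4.

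Within the 1709 regions the median change was positive on each of the 20 chromosomes, from 4.53 points on chromosome 15 to 8.81 on the X, where it was positive in all 16 regions. It was positive at each length, from 2.82 points in the 66 regions of 1 kb to 9.21 in the 168 regions of 6 kb or more, and in each of 10 equal classes of H3K4me3 level over all shared regions, from 3.42 to 8.33. In 725 regions with the same H3K4me3 length in all 4 libraries it was 5.34. In 4 of the 6 groups of 4 neighbouring regions, those on chromosomes 4, 12 and 14 and the second on chromosome 2, all 4 members ranked higher in both 60M libraries. In the group on chromosome 10 it was 3 of the 4, and in the first on chromosome 2 it was 1. The share of such regions was 63.5% over all 1709 regions and 30.3% over all shared H3K4me3 regions.

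Regions with stronger H3K27me3 at 5M had larger H3K4me3 rank changes. Divided into 3 equal classes by H3K27me3 signal at 5M, the median change was 4.01 points in the lowest, 5.78 in the middle and 9.38 in the highest class. Spearman's rho between the H3K4me3 rank change and the H3K27me3 signal was 0.370 and 0.406 with the 5M libraries and 0.213 and 0.176 with the 60M libraries, over 1709 regions. The H3K27me3 rank change, taken here among the 1709 regions, ran against the H3K4me3 rank change with a rho of −0.362. A rise in H3K4me3 rank came with a rise in H3K27me3 rank in 707 regions and without one in 782. Of the regions with no rise in H3K4me3 rank, 156 rose in H3K27me3 rank and 64 did not. Because H3K27me3 was ranked among the 1709 regions alone, its rises and falls had to balance on average. The number of its rises therefore says nothing of the H3K27me3 level as a whole. The regions are not independent of each other, and no test was made of these relations.

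**Figure D3:**
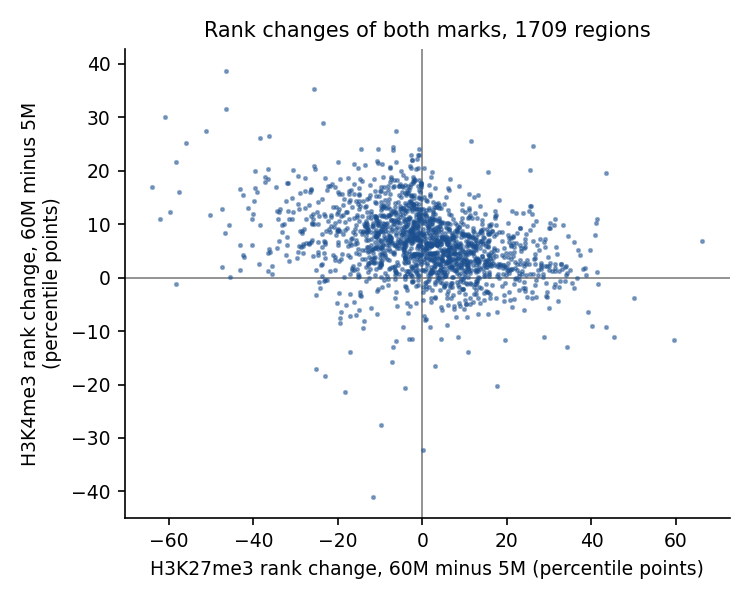
Change in H3K4me3 percentile rank (vertical axis) against change in H3K27me3 percentile rank (horizontal axis), both 60M minus 5M in percentile points, for the 1709 regions (1 point each). Most points lie above the horizontal zero line, and the cloud slopes downward, with a Spearman's rho of −0.362. H3K27me3 was ranked among these regions alone, so its rises and falls balance on average.

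Few single regions passed a test of the rank difference. With limma and Benjamini-Hochberg adjustment over all 35229 shared regions, 5 of the 1709 regions were higher at 60M, where the background was 0.304%, and 2 were lower, where it was 0.318%. These shares of the 1709 regions, 0.293% and 0.117%, are near or below the background. Without 5M library 1 or without 5M library 2 the counts were 0 and 0. Without 60M library 1 they were 1077 (63.0%) and 42 (2.46%), against backgrounds of 18.2% and 18.6% in the same fit. Without 60M library 2 they were 309 (18.1%) and 44 (2.57%), against 8.83% and 7.48%. In these fits the lone library is assumed to vary like the others. With the −log10 p of the immunoprecipitate ranked in place of the signal, an alternative chosen after seeing the data, 90 (5.27%) were higher and 5 (0.293%) lower, against 2.3% and 1.61%. The 5M replicates agreed closely, with a Spearman's rho of 0.992 between their H3K4me3 signals over the 1709 regions, against 0.958 at 60M.

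The largest increase among the 5 was a 3 kb region on chromosome 4 (73658000 to 73660999). Its H3K4me3 signal was 179.8 and 167.5 at 5M and 438.2 and 479.8 at 60M, and its percentile went from 36.8 and 33.7 to 70.0 and 78.1, a change of 38.8 points (SE 3.50, limma adjusted p = 0.0466). The H3K27me3 signal there was 66.8 and 73.8 at 5M and 43 and 35.7 at 60M, so both marks were separated between the ages in opposite directions. On chromosome 12 (104552000 to 104555999) the H3K4me3 signal was 84.4 and 94.1 at 5M and 279.4 and 285.9 at 60M, a rank change of 35.2 points. H3K27me3 covered all 4 kb of that region in both 5M libraries and 1 kb in both 60M libraries. On chromosome 7 (54613000 to 54614999) the H3K4me3 signal was 56 and 51.9 at 5M and 178.3 and 197.3 at 60M, with no overlap. The others were a 7 kb region on chromosome 2 (56963000 to 56969999), with a rank change of 12.3 points, and an 8 kb region on chromosome 5 (58105000 to 58112999), with one of 12.0 points. In the chromosome 2 region H3K27me3 covered 3 and 5 kb at 5M and 1 kb in both 60M libraries. In 4 of the 5 the H3K27me3 percentile within the lists was lower in both 60M libraries than in both 5M libraries, and in the region on chromosome 5 it overlapped between the ages. These 5 were picked for their H3K4me3 rise, and this count was not tested. Ranked among the shared H3K27me3 regions instead, 26.8% of the 1745 on a region with both marks were lower in both 60M libraries. Over all 4962 shared H3K27me3 regions it was 25.1%.

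The regions that were lower at 60M measured 3 and 2 kb. On chromosome 7 (111276000 to 111278999) the H3K4me3 signal was 224 and 272 at 5M and 65.6 and 97.9 at 60M, and the percentile went from 45.1 and 52.6 to 4.72 and 11.1. The H3K27me3 signal was lower there too, at 44.3 and 55.5 against 37.8 and 38. On chromosome 6 (112422000 to 112423999) the H3K4me3 signal was 130.1 and 140.8 at 5M and 68.7 and 68.8 at 60M. Each of these 7 calls had the same limma adjusted p of 0.0466, and each was lost without either 5M library. Over the alternatives tried, their limma adjusted p ran from 0.000494 to 0.489.

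H3K4me3 also covered more of the regions at 60M. The mean covered length per region in the 5M lists was 2.75 and 2.90 kb, and 3.05 and 3.25 kb in those of 60M, with no overlap. On average it was 2.82 ± 0.105 kb and 3.15 ± 0.140 kb (SD, n = 2; exact two-sided permutation test p = 0.333), a difference of 0.328 kb, while regions with no H3K27me3 peak differed by 0.076 kb. Of the 1709 regions, 271 (15.9%) were wider in each 60M library than in either 5M library, against a background of 7.43%. Narrower were 26 (1.52%), against 2.49%. Among the 857 regions with H3K27me3 in 3 of 4 lists, 10.3% were wider and 1.75% narrower. An H3K4me3 peak of 5 kb or more was present in 8.78% and 10.7% of the 1709 regions at 5M and in 13.2% and 15.6% at 60M. The mean share went from 9.74% to 14.4% there. With H3K27me3 in 3 of 4 lists it went from 6.53% to 8.05%, and over all shared H3K4me3 regions from 3.66% to 4.33%. The ages did not overlap in any of these sets, so a rise in such peaks was not particular to the 1709 regions.

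H3K27me3 covered less of the same bases at 60M. Of the 5.8 Mb, 64.4% and 73.9% lay under an H3K27me3 peak in the 5M libraries, and 56.5% and 55.5% in the 60M libraries. The 60M libraries lay close together and below both 5M libraries, and the 5M libraries were farther apart than the 60M libraries. On average the cover was 69.2 ± 6.71% and 56.0 ± 0.658% (SD, n = 2; exact two-sided permutation test p = 0.333), a difference of −13.2 percentage points that was −8.45 without 5M library 2. H3K27me3 bases were fewer in each 60M library than in either 5M library in 306 regions (17.9%), more in 19 (1.11%), and overlapping or tied in 1384. Over all 35229 shared H3K4me3 regions, most of which had no H3K27me3 peak in any list, the background was 2.5% fewer and 0.431% more. Over the 4885 of them with H3K27me3 in at least 1 list it was 18.1% and 3.11%, so the share with fewer bases was near this background. The widest H3K27me3 peak touching a region averaged 5.18 and 6.32 kb in the 5M lists, and in the 60M lists 4.94 and 4.49 kb. A peak of 10 kb or more touched 217 and 323 regions at 5M and 174 and 118 at 60M, again with no overlap. No such count was made over the other H3K27me3 regions, so whether this is particular to these regions was not tested.

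**Figure D4:**
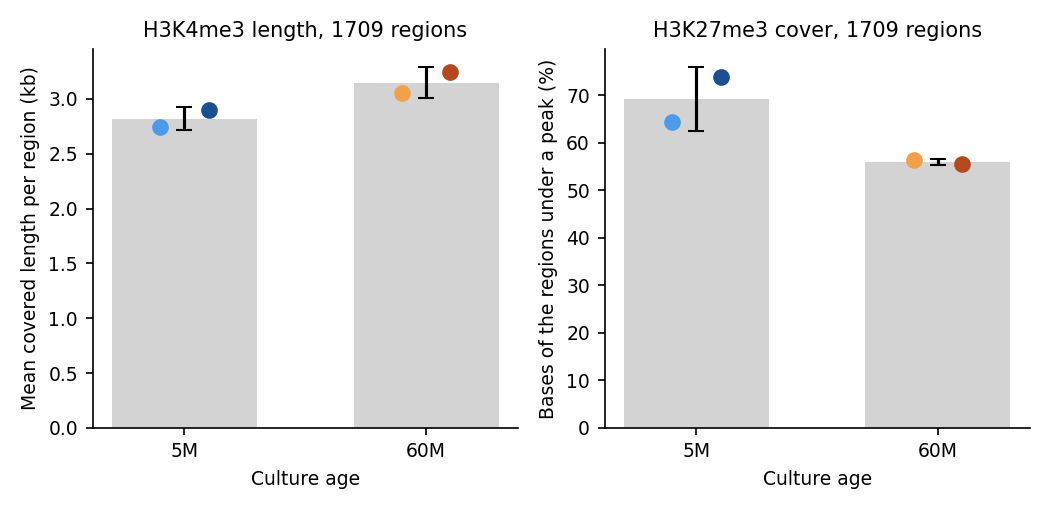
Left, mean H3K4me3 covered length per region (kb); right, percent of the bases of the 1709 regions under an H3K27me3 peak, for 5M and 60M cells. Points are single libraries, bars are means of 2 libraries and error bars their SD; H3K4me3 goes from 2.82 to 3.15 kb and H3K27me3 from 69.2 to 56.0%.

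Along the regions, the difference in H3K27me3 cover between the ages was −20.0 percentage points in the interior, −8.70 at the borders and −1.81 just outside. In the 1146 regions of 3 kb or more, the bins between the first and the last (2448 bins) were under an H3K27me3 peak in 50.2% and 62.1% of cases at 5M and in 36.6% and 35.8% at 60M. The first and last bins were covered in 71.9% and 79.9% of cases at 5M and in 67.9% and 66.4% at 60M. In the 1 kb just outside, the values were 69.8% and 77.7% at 5M and 74.4% and 69.5% at 60M, and the ages overlapped. In the interior the means were 56.1 ± 8.41% and 36.2 ± 0.549% (SD, n = 2), and exact two-sided permutation tests gave p of 0.333 for interior and border and 0.667 just outside. The border exceeded the interior by 19.7 ± 2.73 points at 5M and by 31.0 ± 0.469 points at 60M (exact two-sided permutation test p = 0.333). A higher share at the border is partly set by the rule, since a flanking peak that reaches only the outer bin is enough for a region to be kept. The smaller age difference at the border may be partly set by the rule too. A region could lose its interior cover in a list and be kept through the border, but not lose both. Over all 16657 shared H3K4me3 regions of 3 kb or more, the interior was covered in 5.69% and 7.72% of cases at 5M and in 3.95% and 3.72% at 60M. The order of interior and border was reversed in the 488 regions of this length with H3K27me3 in 3 of 4 lists, a class in which the list without a peak was more often one of 60M. There the difference was −16.9 points in the interior and −22.2 at the borders, and the border exceeded the interior by 29.1 ± 4.81 points at 5M and 23.9 ± 1.48 at 60M.

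**Figure D5:**
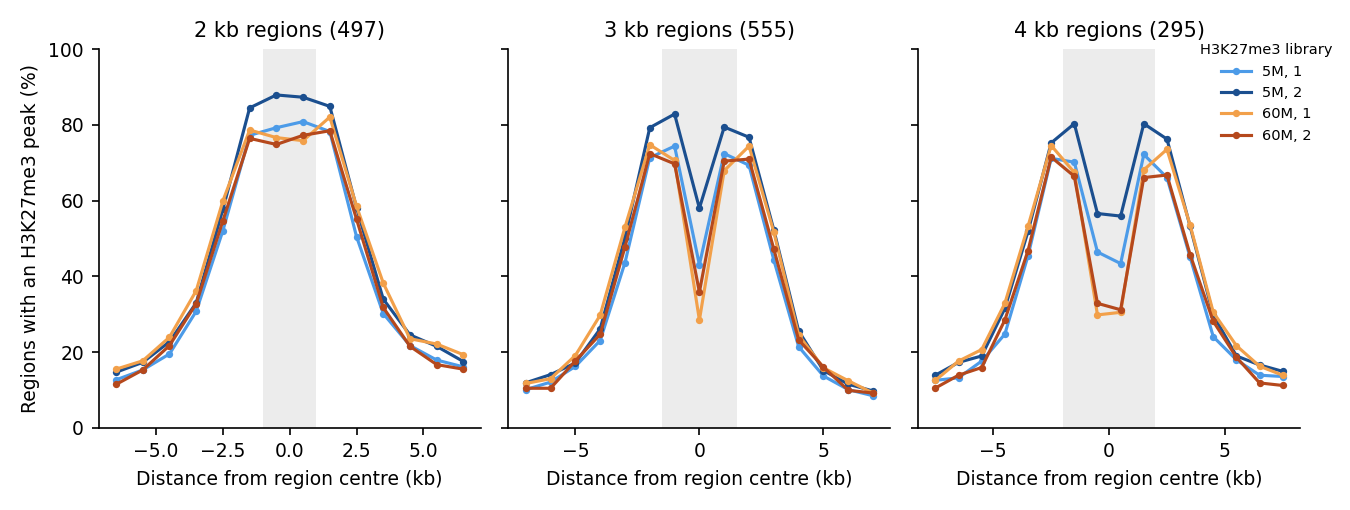
Percent of regions with an H3K27me3 peak in each 1 kb bin (vertical axis) by distance from the centre of the region in kb (horizontal axis), for the 497 regions of 2 kb, 555 of 3 kb and 295 of 4 kb, with 1 line per H3K27me3 library and the H3K4me3 region shaded. In the 3 and 4 kb regions the lines dip in the middle and the dip is deeper in both 60M libraries, while outside the shading the lines of the ages overlap in all bins except those 5 kb from the centre of the 3 kb regions, where both 60M lines are slightly higher.

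In the 555 regions of 3 kb, the middle bin was under H3K27me3 in 43.1% and 58.0% of regions at 5M and in 28.5% and 35.9% at 60M. Among the 750 regions of 3 kb or more with an odd number of bins, the middle bin had H3K27me3 in all 4 libraries in 151 (20.1%) and in none in 252 (33.6%). In 70 (9.33%) it was covered in the 5M libraries alone, both of them, and in 3 (0.4%) in both 60M libraries alone. Over all 12007 shared H3K4me3 regions of such lengths the backgrounds were 0.966% and 0.0666%, and over the 1930 of them with H3K27me3 in at least 1 list they were 6.01% and 0.415%. Cases covered at 5M alone thus outnumbered those at 60M alone in the wider set too. Because H3K4me3 was wider at 60M, the interior was also taken from the stretch that all 4 H3K4me3 libraries covered, in 731 regions. There the shares were 46.4% and 57.8% at 5M and 33.1% and 32.9% at 60M, so the ages were separated in that stretch too.

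The rank of the H3K27me3 signal on these regions had a median change near 0. Among the 4962 shared H3K27me3 regions, the 1745 that overlapped a region with both marks had a median rank change of −0.14 percentile points. In 442 of them (25.3%) both 60M libraries ranked above both 5M libraries and in 467 (26.8%) below, near the backgrounds of 27% and 25.1%. In cover, 117 (6.71%) were wider at 60M and 322 (18.5%) narrower, against backgrounds of 8.28% and 16.7%. With limma and Benjamini-Hochberg adjustment over all 4962 regions, 0 of the 1745 were higher and 0 lower at 60M, where the background was 0.0% in both directions. At an unadjusted limma p under 0.05, 162 (9.28%) were higher and 182 (10.4%) lower, near the backgrounds of 9.39% and 9.41%. Fitted on normal scores of the ranks, limma called 6 higher (0.344%) and 23 lower (1.32%), below the backgrounds of 0.665% and 1.87%. Without 60M library 1 the counts were 50 (2.87%) and 125 (7.16%), against backgrounds of 3.33% and 6.33%. Without 60M library 2 they were 19 (1.09%) and 71 (4.07%), against 1.63% and 3.61%, and without either 5M library they were 0 and 0. The H3K27me3 replicates agreed less than those of H3K4me3, with rho of 0.927 at 5M and 0.820 at 60M over the 1709 regions.

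The H3K27me3 regions with the largest rank differences and no overlap between ages, none of which passed the limma test, included both directions. The largest decrease was on chromosome 14 (87962000 to 87970999), where the H3K27me3 signal was 79 and 92.8 at 5M and 44.2 and 43.9 at 60M. The H3K4me3 rank of the region inside it (87967000 to 87969999) changed by 30.1 points upward. The second largest decrease overlapped the chromosome 4 region with the largest H3K4me3 increase. On chromosome 7 (69519000 to 69527999) the H3K27me3 signal was 109.8 and 137.5 at 5M and 68 and 36.9 at 60M. The largest increase was on chromosome 15 (88487000 to 88492999), with H3K27me3 signals of 44.9 and 41.6 at 5M and 64.6 and 68.5 at 60M, and the H3K4me3 rank of its region (88488000 to 88489999) changed by −9.20 points. An 8 kb H3K27me3 region on chromosome 1 (74936000 to 74943999) was covered over 2 and 3 kb at 5M and over all 8 kb in both 60M libraries, with signals of 41.1 and 43.5 against 53.5 and 75.5. Among the 8 named decreases the H3K4me3 rank change was positive in 7, near the share of 87.1% over all 1709 regions. Among the 8 named increases it was positive in 3. These are the extremes of the same data.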

How the data were processed

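The submitters' processing notes name Bowtie 1.1.2, CASAVA 1.8.4 and the build mm10. No peak caller is named in these sources. However, 1331 listed peaks on 9 chromosomes end past the mm10 chromosomes and 2 peaks on 1 chromosome past those of mm9 (lengths from GenomeInfoDb 1.38.1), so positions were read as mm9. They were not converted to the build of the gene table at hand. The authors deposited 1 peak list per library. Per the file headers, each gives a maximum immunoprecipitation signal, whose scaling is not given. The deposited lists also give −log10 p-values, in 1 column for the immunoprecipitate and in another for its comparison with the control (3.01 to a ceiling of 15.95), and q-values up to 0.00097, per the file headers.

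The members, lists and tests were chosen with earlier results of these data known. Regions were built with Python 3.11.15, numpy 2.4.6 and pandas 2.3.3, and exact permutation tests enumerated the 6 arrangements of 2 against 2 libraries. Adjustment over the measures tested cannot lower their p, since 0.333 is the smallest value possible. Signals were ranked within each library over the regions listed in all 4 libraries of a mark, as percentiles. They were then fitted with limma 3.58.1 in R 4.3.3 with a mean-variance trend and no block, with Benjamini-Hochberg adjustment over all regions and a threshold of 0.05. The code was tested on simulated data, and correlations used scipy 1.17.1. Regions named are the 8 with the highest level of each mark in their lowest library, the 5 with the longest H3K27me3 cover, up to 8 per mark and direction past the limma threshold (or, if none passed, the 8 largest differences without overlap), and regions at the edge of the rule. The text prints examples of each kind. Rank changes by class, interior bins and neighbour groups were added after the data were seen. Gene lists and cell type markers that had been planned were not analysed here. Alternatives were other overlaps, merging distances, peak thresholds, list lengths, rank scales and values, and the omission of each library.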

Additional observations from a re-analysis of the deposited data

How the results depend on the processing

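The number of regions with both marks was 659 when at least 2 bins had to overlap and 72 with only the peaks at the ceiling of the −log10 p. It was 1656 to 2057 with 1 library left out. Calls by limma moved most. With the −log10 p of the immunoprecipitate ranked, chosen after seeing the data, 90 of the regions (5.27%; all shared regions 2.3%) were higher and 5 (0.293%; 1.61%) lower in H3K4me3 at 60M, against 5 and 2. Normal scores gave 0 lower in H3K4me3, and 6 higher and 23 lower in H3K27me3, against 0 and 0. Without a mean-variance trend 1 (0.0585%; all shared regions 0.403%) was lower in H3K4me3. With the replicate number as a block, H3K4me3 had 0 higher and 0 lower. H3K27me3 then had 6 higher (0.344%; all shared regions 0.605%) and 25 lower (1.43%; 1.85%), both shares below those of all shared regions. Deviations of same-numbered libraries correlated at r = 0.0947 for H3K4me3 and 0.0400 for H3K27me3 over all shared regions, so the numbers were not taken as a pairing. With 1 library left out, H3K4me3 calls ran from 0 to 1077 higher and 0 to 44 lower, and H3K27me3 calls from 0 to 50 higher and 0 to 125 lower.

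Differences between ages kept their direction with 1 library left out, in the 1709 regions as chosen on the full set of lists. For the H3K4me3 length, the H3K27me3 cover and the interior cover the direction could not have changed. The libraries of the ages did not overlap in these measures, so their ranges show only how the size varied. The median H3K4me3 rank change was upward from each 5M library to each 60M library. Its direction thus had little room to change either. The H3K4me3 rank change was 3.38 to 9.24 points, the H3K4me3 length difference 0.229 to 0.427 kb, the H3K27me3 cover difference −17.9 to −8.45 percentage points and the interior difference −25.9 to −14.0. The exact permutation test of 2 libraries against 2 cannot pass a threshold of 0.05. Read depth is unknown, and bins of 1000 bp limit every border. The whole lists also differed between the ages. Of all listed H3K4me3 peaks, 70.2% and 69.6% at 5M and 75.6% and 78.5% at 60M stood at the ceiling of the −log10 p. For H3K27me3 the shares were 2.92% and 4.71% at 5M and 2.70% and 1.83% at 60M. Whether the differences in the 1709 regions follow those of the whole lists was not tested.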
